A study of Drosophila melanogaster with 12 samples.

Results

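A unit nested inside a longer unit of the opposite strand shares its whole stretch of DNA with that unit and is transcribed in the opposite direction. A transcription unit was nested here when its start and end both lay within a single longer unit on the other strand of the same chromosome, with the mitochondrial genome left out. By that rule 1766 of the 15960 nuclear units were nested (11.1%, 95% exact binomial interval 10.6 to 11.6%), inside 1135 host units. The other 13059 units were neither nested nor host. Coordinates and strand alone chose the members, and no library value entered.

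The series profiled RNA polymerase II in S2 cells, a cultured male Drosophila melanogaster line, by mNET-seq, in which polymerase is immunoprecipitated and the growing RNA it carries is sequenced. Its 12 libraries form 6 groups of 2 replicates. The antibody was against total Pol II or against the form with phosphate on Ser5 of the C-terminal repeats, each after control RNAi (titled GST), MSL1 RNAi or MOF RNAi. RNAi lasted 2 days for the control and MSL1, and MOF RNAi lasted 4 days, according to the design text, which states this for the series and not per library. MSL1 is a scaffold of the male-specific lethal (MSL) complex, which raises transcription of the male X, and MOF is its histone acetyltransferase. What was read here is a list of transcription units on dm6 that holds 0 library values. Depth is therefore unknown, no RNAi effect is given, and all comparisons below are descriptions of an annotation, with no test. Intervals describe counting only, since neighbouring units are not independent.

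Nested genes are a long known feature of the fly genome. Most described cases lie in an intron of the host, so that host polymerase passes through the whole nested gene on the opposite strand. A strand-specific assay of nascent RNA can separate the pair, while coverage added up over both strands cannot. The labels list coverage summed over both strands among the deposited outputs. That coverage was not analysed here, and the sources used here do not state whether units were counted by strand.

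Each nested unit had exactly 1 host, and 0 units were both nested and host. Both facts follow from the construction of the annotation, in which 0 units overlapped another on their own strand. A gene inside a longer gene of its own strand is joined to that gene's unit, so the nested units are the opposite-strand side of nesting only. Nested units lay on plus 924 times and on minus 842 times.

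Of the well known nested pairs looked for, all were found as nested unit and host except Sgs4 in dnc. Pcp (FBgn0003046), a pupal cuticle protein gene, had a unit of 789 bp on plus of 2L from 7021682 to 7022470, inside the 9276 bp unit of ade3, a purine synthesis gene also called Gart. The unit of Adh and Adhr, alcohol dehydrogenase and its related neighbour, spanned 3351 bp from 14615552 to 14618902 of 2L and took up 3.72% of the 90145 bp unit that osp heads. In the pair of sina, a ubiquitin ligase gene of photoreceptor fate, and Rh4, an opsin gene, sina was the nested member. Its 4962 bp, from 16853751 to 16858712 of 3L, filled 49.7% of the 9991 bp Rh4 unit, which also held sinah and CG13029. The unit of dnc, a cAMP phosphodiesterase gene on X, spanned 167328 bp and held 5 nested units of 267 to 690 bp, among them Pig1, ng2, ng3 and ng4. Of the salivary gland genes of that region, Pig1, ng2, ng3 and ng4 were nested, whereas ng1 and Sgs4, on the strand of dnc, were joined to the dnc unit. Among these genes, those on the strand opposite to dnc had units apart from it and those on its own strand did not.

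By gene class, protein-coding units were the most numerous among nested units, while lncRNA, antisense RNA, tRNA and miRNA units were nested more often relative to the size of their class. Classes come from the RefSeq gene table, to which 1812 of the 1814 genes of nested units were matched. Protein-coding units numbered 1072 (60.7% of nested units, against 80.8% of units that were neither nested nor host). Long non-coding RNA (lncRNA) units numbered 304, antisense RNA units 244, tRNA units 76 and miRNA units 27. Pseudogenes gave 20 units, snRNAs 5 and snoRNAs 3.

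The share of a class that was nested was 8.56% for protein-coding units (95% exact interval 8.08 to 9.07%), 7.55% for the 265 pseudogene units and 18.3% for lncRNA units (16.4 to 20.2%). It was 32.9% of tRNA units (26.9 to 39.4%), 37.5% of 72 miRNA units (26.4 to 49.7%) and 52.8% of antisense RNA units (48.1 to 57.4%). Smaller classes gave 25.0% of 20 snRNA units and 21.4% of 14 snoRNA units. These shares leave out genes joined to a unit of another class on their own strand, which matters most for miRNAs. Of 256 matched miRNA genes, 70.3% lay inside a longer gene on the same strand and 14.5% inside one on the other strand. The antisense class is defined by an opposite-strand partner, so its share is not independent of the rule. Read from symbols alone, 564 nested units held only CR genes, the fly prefix for non-coding genes and pseudogenes, which is 31.9% of nested units beside 14.6% of all nuclear units. Units with only unnamed CG genes made up 40.8% of nested units and 38.3% of all units. Units whose genes all carry a name made up 20.2% and 39.8%. Over all units the nested share fell with length, from 15.8% under 2000 bp to 7.87% from 2000 to 5000 bp and 1.56% from 20000 to 50000 bp. Units that were neither had a median of 2089 bp if protein-coding, 641 bp if lncRNA, 73 bp if tRNA and 93 bp if miRNA. These class and symbol shares were not compared at like length.

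Antisense RNAs were nested mostly in coding hosts and were large relative to them. Of the 244, 221 lay in a host of only protein-coding genes and 23 in a host of mixed class. Their median length was 902 bp, and the median host of an antisense RNA was 5720.5 bp long, against 39506 bp for lncRNAs and 27922.5 bp for protein-coding units. An antisense RNA took up 16.2% of its host in the median, a protein-coding unit 5.95% and an lncRNA 2.11%. The reverse arrangement, a protein-coding unit inside an antisense RNA unit, was found 37 times, and 1 protein-coding unit lay in a host of only lncRNA genes. Gr93d, a gustatory receptor gene, was among those inside a non-coding host. Its 1206 bp filled 95.8% of the 1259 bp unit of CR44087 on 3R.

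Gene classes differed in how often they lay on the strand of an enclosing gene or opposite to it. For this, single genes were compared by their RefSeq spans, 17596 matched nuclear genes in all. Of these, 1301 lay inside a longer gene on the same strand and 1842 inside a longer gene on the other strand, 57 of them in both. Protein-coding genes lay inside an opposite-strand gene in 8.11% of cases and inside a same-strand gene in 3.89%. For lncRNA genes the shares were 16.2% and 9.26%. The snoRNA and miRNA genes showed the other order. Of 258 snoRNA genes, which guide rRNA modification and are often released from host introns, 94.6% lay on the strand of a longer gene and 3.49% opposite one. Of 256 miRNA genes, 70.3% lay on the same strand and 14.5% opposite. The tRNA genes, which have promoters of their own for RNA polymerase III, lay on the same strand in 58 of 290 cases and opposite in 84 (29.0%).

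Nested units were short, as the rule favours. Their median length was 1069.5 bp, with quartiles of 614.25 and 1931.75 bp and a range from 57 to 89738 bp. Hosts had a median of 14785 bp and units that were neither had 1787 bp. Within the protein-coding class the median was 1406 bp for nested units and 2089 bp for units that were neither. Among lncRNA units, nested ones had a median of 715.5 bp and the others 641 bp. Nested units under 200 bp numbered 114 and were mostly tRNA and miRNA units.

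**Figure D1:**
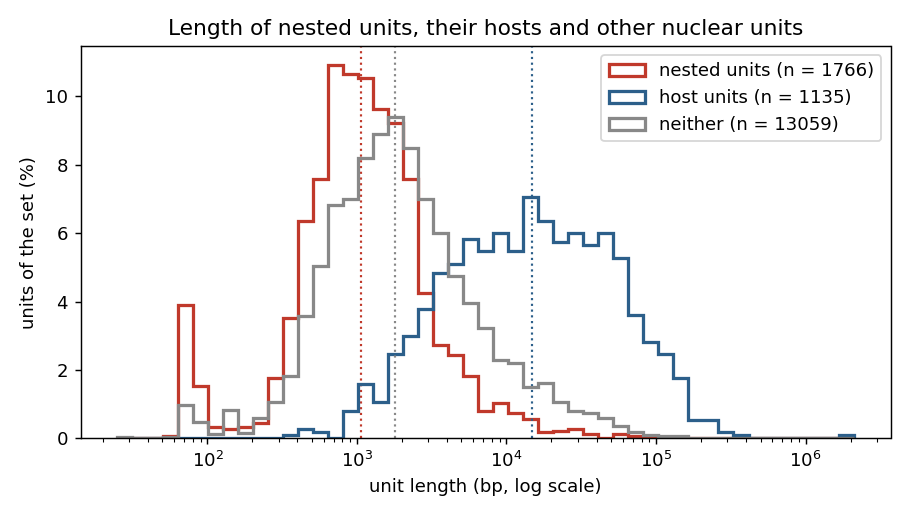
Length of transcription units in bp on a log axis, as the percentage of units of each set, with dotted lines at the medians. Nested units (1766) have a median of 1069.5 bp, hosts (1135) 14785 bp and the remaining units (13059) 1787 bp. The small peak of nested units below 100 bp is made up mostly of tRNA and miRNA units.

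The shortest nested unit was mir-9379, 57 bp on 2R inside CG30485. It was followed by tRNA:Gly-GCC-1-1, 71 bp on 2L inside Wdr62, and then by tRNAs of 72 bp such as tRNA:Pro-CGG-2-3 inside not, tRNA:Pro-TGG-1-5 and tRNA:iMet-CAT-2-1. The unit of br (FBgn0283451), the broad gene of the ecdysone response, spanned 89738 bp of X from 1575132 to 1664869 with 14 transcripts. It lay inside the 145744 bp unit that includes Mur2B and CG3740. The unit of bi, a T-box transcription factor gene, spanned 72792 bp inside a 223710 bp unit that includes rb and Usf. The unit of Ank2, an ankyrin gene with 21 transcripts in its unit, spanned 63007 bp on 3L inside a unit with CG32373 and PGRP-SD. A unit of 61000 bp with CG12535 and CG14269 lay inside the unit of Myc, the growth regulator, and CG43902 (36904 bp) lay inside that of CR44894 and CG15309.

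Of these 5 longest nested units, 4 lay on X. The other long nested units of X included Nna1, with 25544 bp, or 75.3% of the Nadsyn unit, and Nmdar2, an NMDA receptor subunit gene, with 24185 bp or 70.8% of the inc unit. The unit of rst (23436 bp) came next, followed by be (17625 bp, inside hiw), Fim (16226 bp, inside CG5445) and ppk8 (14189 bp, inside the unit of DIP-alpha).

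Nested protein-coding genes had few annotated transcripts. Of 1045 nested units that hold a single protein-coding gene, 71.2% had 1 transcript (95% exact interval 68.3 to 73.9%), against 49.3% of 10906 units that were not nested. Host units of that kind had 1 transcript in 22.3% of 734 cases. They are counted among the units that were not nested, here and in the shares by length below. Nested units are also shorter, so the shares were taken by length. Between 1000 and 2000 bp, 75.2% of 363 nested units and 64.2% of 3065 others had 1 transcript. Between 2000 and 5000 bp the shares were 59.6% of 245 and 43.4% of 3212. Below 500 bp they were 91.0% of 67 and 90.8% of 316, so the shares lay close together among the shortest units. Unnamed CG genes were also more frequent among nested units of like length, with 69.7% against 55.8% between 1000 and 2000 bp and 60.4% against 43.9% between 2000 and 5000 bp.

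Most hosts held a single nested unit, while about as many nested units shared their host with another as were alone in it. A single nested unit was found in 828 hosts (73.0%), 2 in 171 hosts, 3 in 64 and at least 5 in 42. The 938 nested units with a companion in their host made up 53.1% of all (95% exact interval 50.8 to 55.5%). Among hosts of 1 gene the share with a companion was 36.4%, and by arm it ran from 44.4% on 3R to 58.7% on X. The 42 hosts with at least 5 held 284 nested units. Host length rose with the number held, from a median of 9514 bp for 1 nested unit to 35272 bp for 2 to 4 and 64873.5 bp for at least 5. Over 631 gaps between nested neighbours of a host the median was 1938 bp, and 39.9% were at most 1000 bp. Gaps between other neighbouring units were not measured.

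**Figure D2:**
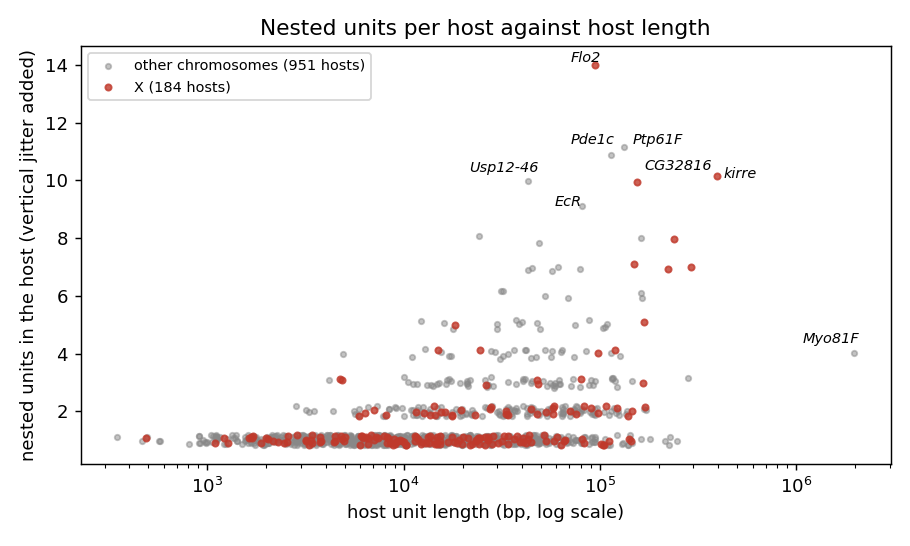
Number of nested units in each of the 1135 hosts against the length of the host in bp on a log axis, with a small vertical jitter; red points are the 184 hosts on X and 8 hosts are named by a gene of their unit. Flo2 holds the most, 14 in 94571 bp, while the longest host, the Myo81F unit of 1965857 bp, holds 4.

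The longer a unit, the more often it was a host. Of units under 2000 bp, 0.842% were hosts, of those from 10000 to 20000 bp 22.7%, of those from 50000 to 100000 bp 59.7%, and of the 89 units of at least 100000 bp 74.2%. Per length of unit the number of nested units rose and then fell, with 8.43 per Mb in units under 2000 bp, 23.4 per Mb between 10000 and 20000 bp and 12.8 per Mb in units of at least 100000 bp. In all, nested units covered 9.93% of the 35269915 bp of host length. Nested units covered at least 50% of the length of 128 hosts and at least 90% of the length of 6.

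The host with the most nested units was Flo2, a flotillin gene, whose product is a scaffold of membrane microdomains. Its unit ran on plus of X from 14839376 to 14933946, held 1 gene with 12 transcripts, and enclosed 14 nested units that covered 56.3% of its 94571 bp. They began with CG12539 at 14842617, CG9522, CG9521 and CG9519 and ended with CG32591, which stops at 14928944. Many of these genes encode oxidoreductases of the glucose-methanol-choline family, and Eo (ecdysone oxidase, 2045 bp) is the named member. Their lengths ran from 973 bp for CG14406 to 10940 bp for CG9514.

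On X, 2 further hosts each held 10 nested units, among them genes long used in fly genetics. The unit of CG32816, CR44753, Pgcl and Cyp4g1 ran on minus from 316576 to 470726. It enclosed y, the yellow pigmentation gene (4737 bp), the lncRNA yar (4674 bp) and the proneural bHLH genes ac (917 bp), sc (1438 bp), l(1)sc (1097 bp) and ase (2430 bp). All of these lay inside the span of CG32816 itself. The nested starts lay between 9979 bp (ase) and 120160 bp (CG43181) from the host start.

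The kirre unit, 394149 bp on plus from 2740384 to 3134532, held w, the white eye pigment transporter gene (5868 bp from 2790599 to 2796466), and rst. The proteins of kirre and rst are related immunoglobulin superfamily adhesion molecules, and rst lay inside the span of kirre, at 0.56 of the way along it. The unit of unc-119 and Atg5, 239347 bp on X, held 8 nested units, among them brk, the repressor of Dpp targets (3194 bp), Dok and CBP.

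Of the autosomal hosts, the Ptp61F unit of 132765 bp on 3L (1342493 to 1475257), headed by a tyrosine phosphatase gene, held 11 nested units. They include rho (5134 bp) and ru (16810 bp), both rhomboid proteases of EGF receptor signalling, the fucosyltransferase gene FucTD and a run of tRNA:Glu-CTC genes. Of these tRNAs, copies 4 to 7 and 9 were units of their own of 72 bp, and copies 1 to 3 were joined to the ru unit. The Pde1c unit of 114417 bp on 2L also held 11, covering 8.19% of it. Among them were the seminal fluid genes Sfp33A2, Sfp33A3 and Sfp33A4 (244 to 418 bp) and the maltase genes Mal-B1 (1944 bp) and Mal-B2 (2924 bp). The Usp12-46 unit on 3R held 10, from CG4725 to CR43654, in 43130 bp. The unit of EcR, the ecdysone receptor gene, held 9 on 2R, of which 7 were tRNA units for arginine, asparagine, lysine and isoleucine. The unit of sick, 162060 bp on 2L, held 8, including the spliceosomal snRNA:U5:38ABa and snRNA:U2:38ABa and the stress-induced Turandot genes TotF (563 bp) and Victoria (579 bp). The B4 unit on 2L held 8 units of unnamed genes, CG33640 to CG33645, CG16852 and CG16853, of 552 to 1366 bp. The CG42321 unit of 24074 bp on 2R also held 8, so that 4 hosts were tied at this number. Of its nested units 6 were tRNA units, for isoleucine and leucine, and the others were CG30065 and Ser8, a serine protease gene.

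**Figure D3:**
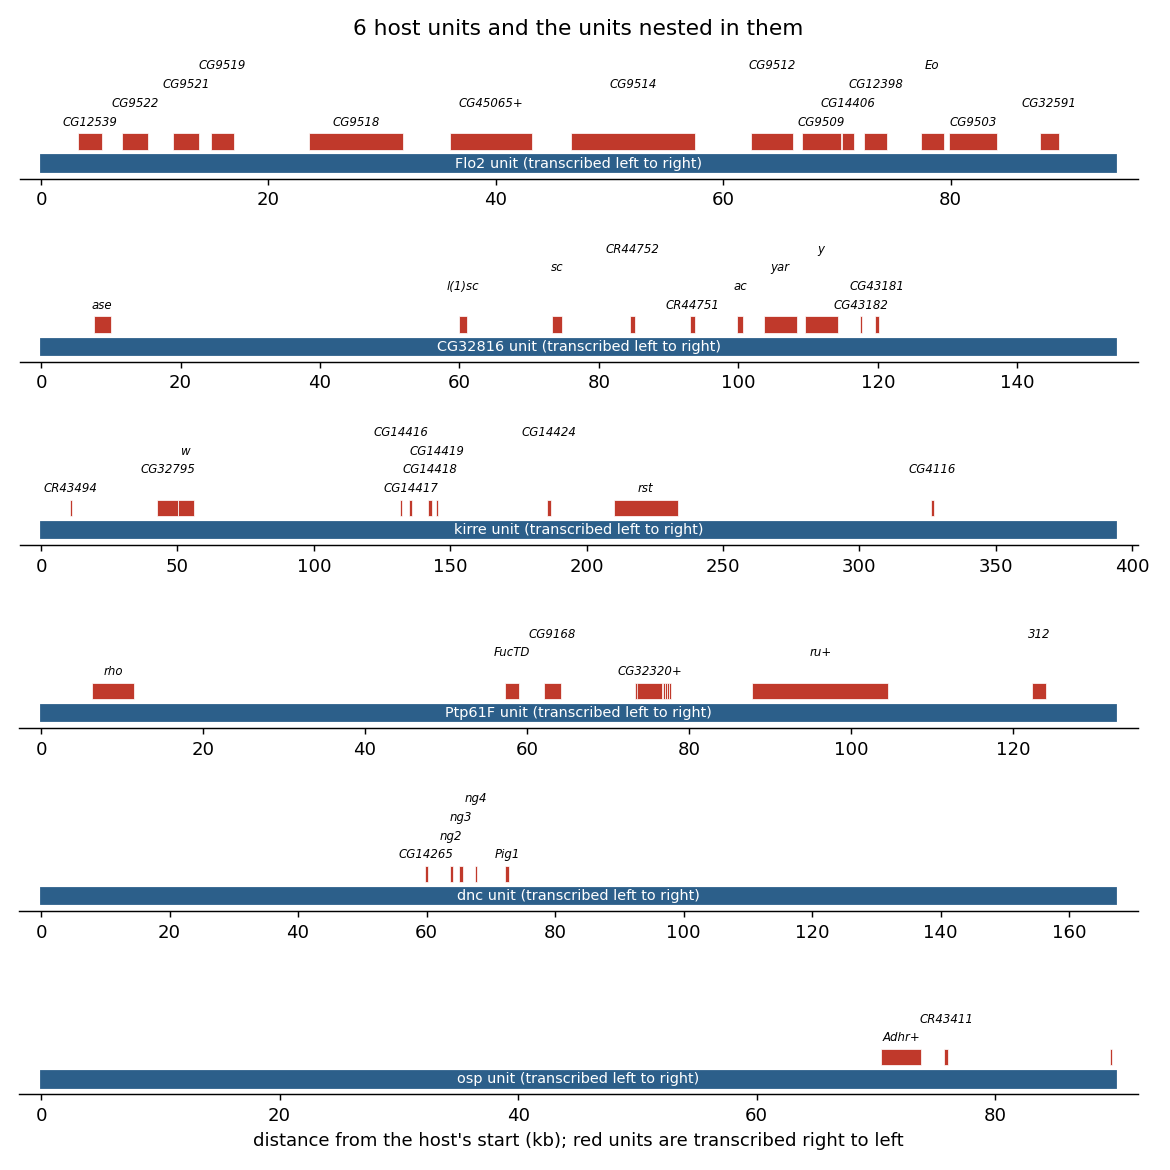
Maps of 6 host units (blue) and the units nested in them (red), drawn to scale as distance in kb from the host's start, with hosts transcribed left to right and nested units right to left; a plus sign marks a nested unit of several genes and tRNA units are not labelled. Each host is named by a gene of its unit. Nested units lie along nearly the whole of Flo2, run from ase to CG43181 in the CG32816 unit, and lie within a short stretch of dnc.

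Some members of a gene family were nested in the same host. Of 34 families read from symbols, 17 had a nested member and 17 had none, and 26 of the 83 nested family members shared their host with another of the same family, in 9 hosts. Over all protein-coding genes, 1109 of 13869 (7.996%) lay in a nested unit. This share is not matched for length. Of units with a single protein-coding gene, 67 were nested and 316 were not under 500 bp. At 5000 bp and over, 85 were nested and 2618 were not. The families below were not compared with genes of like length. Among seminal fluid and accessory gland genes 14 of 46 lay in a nested unit (30.4%). Sfp24Ba, Sfp24Bb, Sfp24Bc and Sfp24Bd were together in Drgx on 2L, and Sfp33A2, Sfp33A3 and Sfp33A4 in the Pde1c unit. Acp36DE, a sperm storage protein gene, lay in the unit of Fas3. Among cytochrome P450 genes, which act on hormones and toxins, 16 of 86 did (18.6%). Cyp4ac1, Cyp4ac2 and Cyp4ac3 lay in the unit of tkv, a Dpp receptor gene, and Cyp4p1, Cyp4p2 and Cyp4p3 in hig.

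The chemosensory families had 10 nested of 60 odorant receptor genes (Or59b and Or59c together in the unit of CG43795, Or94a and Or94b in Nha2), 7 of 60 gustatory receptor genes, 6 of 66 ionotropic receptor genes and 4 of 51 odorant-binding protein genes. Of 135 cuticle protein and chitinase genes 10 were nested, including TwdlX, TwdlY, TwdlZ and Twdlalpha in goe and Cpr64Aa, Cpr64Ab and Cpr64Ac in the unit of CG43367. Ribosomal protein genes had few nested members: 1 of 54 RpL genes (RpL41, in the unit of NaCP60E), 1 of 38 RpS genes (RpS10a, in the unit of tau), 1 of 47 mRpL genes (mRpL53, in AGO1) and 0 of 26 mRpS genes. The 115 histone genes, 16 Jonah protease genes, 24 Osiris genes, 35 glutathione S-transferase genes and 17 Ugt genes had no nested member. None of 14 beat genes and 21 dpr genes, which encode neuronal cell surface proteins, was nested. In host units lay 9 beat genes and 8 dpr genes. Over all nuclear units 7.11% were hosts, and among those from 20000 to 50000 bp 37.4% were. The share of all genes that lay in host units was not counted, and these families were not compared with units of like length. No test of these family shares was made.

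The 76 nested tRNA units lay in 46 hosts, with at most 7 in a host. By isotype, arginine was the most frequent, with 8 units, followed by glutamate and leucine with 7 each and alanine and isoleucine with 6 each. All tRNA units were not counted by isotype, so these numbers do not show which isotypes were nested more often. The 27 nested miRNA units lay in 19 hosts. The largest group was mir-959 to mir-964, 6 units in the unit of DIP-theta on 2L between 5640940 and 5642201. Next came mir-983-1, mir-983-2 and mir-984 in CG3626 and mir-978 and mir-979 in Grip84. Single miRNA units included mir-133, the fly member of a family known from muscle in vertebrates, and mir-87. The nested snRNA units besides those in sick were snRNA:U2:34ABc, snRNA:U11 in Fie and snRNA:U12 in Baldspot, both of the minor spliceosome.

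Of 15 genes of the MSL and NSL complexes and their partners, and of 11 genes of pausing and early elongation, 0 were nested and 0 lay in a host. With 7.996% of all protein-coding genes nested and 7.11% of all units hosts, lists of this size hold few such genes at the background share, and nothing is read from the 0. Of 8 clock genes, vri was a host (of CR45730, 443 bp) and none was nested. Of 8 Hox genes, Scr was a host of 3 lncRNA units (CR45901, CR45904 and CR45905, 490 to 943 bp) and Abd-B of 1 (CR46267, 1864 bp).

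Along their hosts, the midpoints of nested units lay somewhat nearer the start than the end. On a scale from 0 at the host's start to 1 at its end the median midpoint was 0.46, with quartiles of 0.26 and 0.66, and 55.2% of midpoints lay below 0.5 (95% exact interval 52.9 to 57.5%). Of 10 equal bins, the first held 136 midpoints and the last 57. In hosts of at least 20 kb, where edges matter least, the first bin held 99 of 965 and the last 33. Taken at the start of the nested unit, which lies on its side toward the host's end, the median position was 0.54. The share of midpoints below 0.5 was above 50% on X and on each of the 4 large autosomal arms, from 51.9% on 3L to 58.1% on X.

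Classes differed in position. The share below 0.5 was 56.8% for protein-coding units, 61.8% for lncRNA units (95% exact interval 56.1 to 67.3%) and 41.0% for antisense RNA units (34.8 to 47.4%). The last bin held 2.33% of protein-coding, 2.30% of lncRNA and 7.38% of antisense RNA units. Hosts differed too, with a median of 27922.5 bp for protein-coding, 39506 bp for lncRNA and 5720.5 bp for antisense RNA units. A unit that fills more of its host has less room for its midpoint near the ends. The classes were not compared in hosts of like length.

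**Figure D4:**
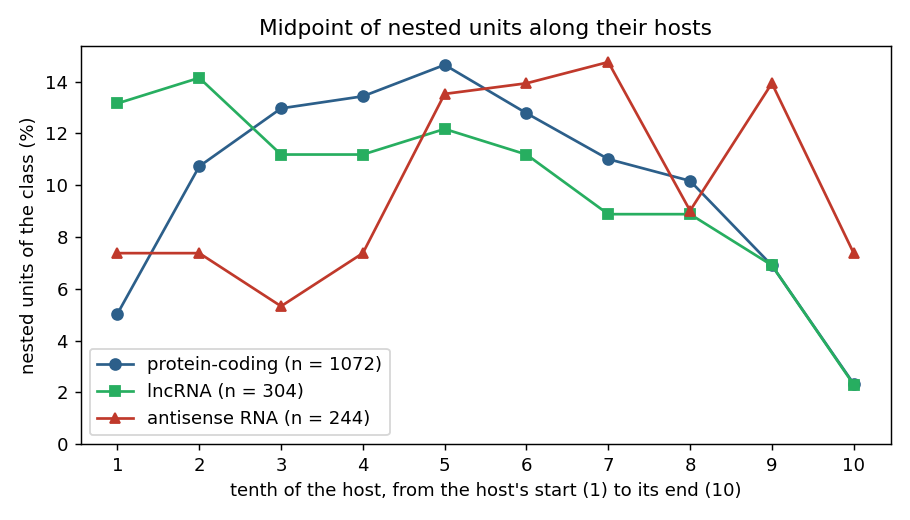
Percentage of nested units of each class whose midpoint falls in each of 10 equal bins of the host, from the host's start (1) to its end (10). Protein-coding units peak in bin 5 (14.6%), lncRNA units in bin 2 (14.1%), and antisense RNA units lie mostly from bin 5 on, while the last bin holds 2.33%, 2.30% and 7.38%.

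The start of a nested unit was a median of 9352 bp from the host's start and 10504.5 bp from its end. It was within 1000 bp of the host's start in 76 cases (4.30%). Because that start lies on the side of the host's end, only a nested unit of about 1000 bp or less can meet this, and 934 of the 1766 were at least 1000 bp long. The end of a nested unit lay within 1000 bp of the host's start in 251 cases (14.2%), and its start lay within 1000 bp of the host's end in 219 (12.4%).

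The percentage of units that were nested was highest on X, but the density along unit length was not. On X, 310 of 2399 units were nested (12.9%, 95% exact interval 11.6 to 14.3%). The share was 12.4% on 3L, 10.9% on 2R, 10.8% on 2L and 9.53% on 3R, so the X and 3L intervals overlap widely. Among protein-coding units the share was 11.5% on X (10.1 to 13.0%), 9.17% on 2R (8.08 to 10.4%), 8.90% on 3L, 7.94% on 2L and 6.74% on 3R. X held 17.7% of the nested units of these 5 arms, against 15.2% of all their units and 19.6% of their unit length. Per length of unit X had 16.4 nested units per Mb, below 2L (20.5), 3L (20.5) and 2R (19.9) and above 3R (14.9). The order of X thus turned on whether units or bases were counted.

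Long units were more frequent on X, where 8.59% reached 20 kb, against 5.49 to 6.43% on the 4 autosomal arms. Of X units from 50000 to 100000 bp, 41.2% of 51 were hosts, and on the autosomal arms 61.0 to 70.0% of 40 to 47 units. At 100000 bp and over the X share was 83.3% of 24, inside the range of 45.5 to 90.5% of the other arms. Units with only CR genes made up 23.2% of nested units on X and 23.9% on 2R, and 36.1 to 36.5% on 3R, 3L and 2L. Over all units of each arm the share was 12.8% on X, 11.7% on 2R, 12.6% on 3R, 15.6% on 3L and 18.6% on 2L. The X nested units had a median length of 1231.5 bp, and those of the autosomal arms 958.5 to 1136 bp.

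**Figure D5:**
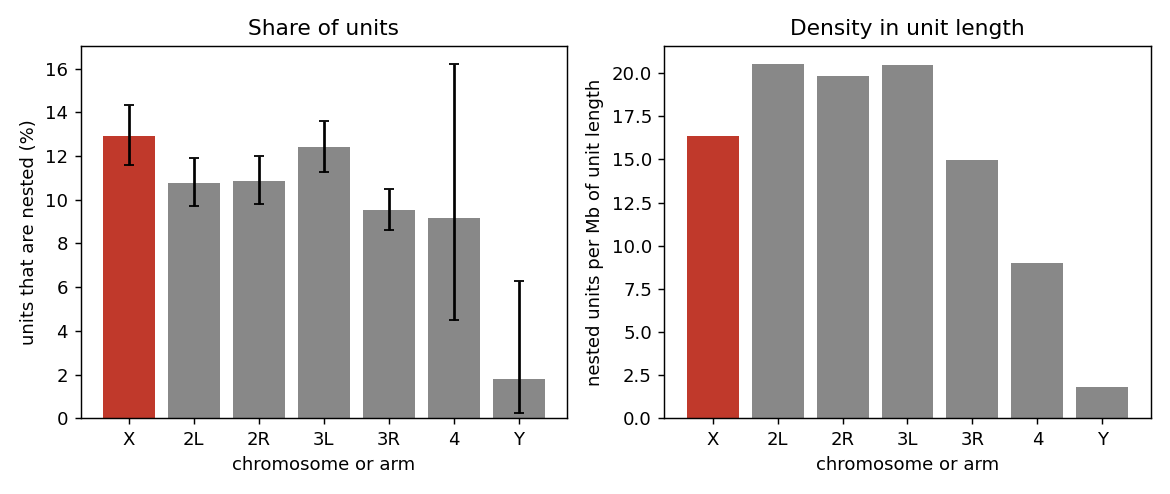
Left, percentage of the units of each chromosome or arm that are nested, with 95% exact binomial intervals; right, nested units per Mb of unit length, without intervals. X (red) is highest on the left (12.9%) and is exceeded by 2L, 2R and 3L on the right (16.4 against 19.9 to 20.5 per Mb).

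On chromosome 4, 10 of 109 units were nested (9.17%, 95% exact interval 4.49 to 16.2%), a share near that of all nuclear units, and 0 of its 77 protein-coding units were. The 10 comprised 9 CR units, among them CR43425, CR44029 and CR43361 inside unc-13, a synaptic vesicle priming gene, and the lncRNA gene sphinx (2094 bp) inside fuss. Of 112 Y units 2 were nested (1.79%), the pseudogenes CR45947 inside kl-3, a dynein heavy chain gene, and CR40441 inside Ppr-Y.

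Few members sat at the edge of the rule. An end shared exactly with the host was found for 10 nested units, among them dUTPase in CR45778, CR44865 in CG15255 and CR43467 in the unit of CG12917 and Or46a. Just outside the rule, CR46337 and CR45142 each protruded by 1 bp from a longer opposite unit and CR44293 by 2 bp. In all 101 members lay under 100 bp from an end of the host, and 72 units that were not members protruded by under 100 bp.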

How the data were processed

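The deposited file gives the position of each transcription unit in bp on dm6, with other values absent, and was exported by rtracklayer 1.48.0 per the file headers. The sources used here do not say how genes were joined into units. The tools named in the submitters' processing notes include STAR 2.7.4a, SAMtools 1.20 and cutadapt 2.8. Library values of the authors were not analysed here.

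Containment was computed for every unit from start, end and strand, and the code was tested on simulated data (2400 intervals, 0 mismatches with a plain loop). RefSeq's table for Release 6, the assembly of dm6, gave gene classes and was matched by symbol, locus tag or synonym (17596 of 17660 nuclear genes). Named genes are textbook pairs, 5 gene lists in all, 34 symbol families, the 10 hosts with most nested units (an 11th tied with the last 3) and up to 4 units of each, the longest and shortest members, and members at the edge of the rule. Other units of those hosts, further long units of X, hosts nearly filled by a nested unit, and the miRNA, snRNA, chromosome 4 and Y units were named after their values were seen. Members and lists were chosen with earlier results of these data known. No sequence, exon or promoter table was used. Shares have 95% exact binomial intervals. Tables were made with pandas 2.3.3 and NumPy 2.4.6 in Python 3.11.15, intervals with SciPy 1.17.1 and figures with Matplotlib 3.10.9. Alternatives are given in the closing section.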

Additional observations from a re-analysis of the deposited data

How the results depend on the processing

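No paired analysis was possible because the annotation holds no library values, which also leaves no replicate to leave out. Counting only hosts of 1 gene left 1013 nested units, 36.4% of them with a companion in the host and 36.6% holding only CR genes. Counting only nested units of at least 1000 bp left 934, and 10.0% of X units of that length were nested. With both ends at least 100 bp inside the host, 55.5% had a companion. Of nested units, 38.8% held only non-coding genes by RefSeq class. The start of the nested unit in place of its midpoint gave a median position of 0.54. On X the density was 16.4 nested units per Mb of unit length. Restricting to protein-coding units was chosen after seeing the data. It gave a median length of 1406 bp, an X share of 20.7% and 11.5% of X protein-coding units nested. These changes follow from counting fewer or other units. As a base for the 20.7%, X held 1937 protein-coding units in all, against 2394 on 2L, 2552 on 2R, 2449 on 3L and 3088 on 3R. The 38.8% has no such share over all nuclear units beside it. Of 1766 nested units, 1758 lay inside the span of at least 1 gene of the host, a setting also chosen after seeing the data. For hosts of 1 gene the rule nearly fixes this outcome. In hosts of more than 1 gene the count was 745 of 753. Containment in a host intron and promoter motifs were not run, for want of exons and sequence.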

Other observations

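The 8 nested units that lay in a multi-gene host without lying inside any single gene of it include a pair of units at mod(mdg4) on 3R, a locus known for trans-splicing. Its unit of 26556 bp enclosed a unit of pre-mod(mdg4) genes of 1956 bp (21360176 to 21362131) and another of 4641 bp (21365609 to 21370249) on the other strand. The others were CR44147, CR43467, P5CDh2, ppk8, CG13377 and CG9914, the last 3 on X.

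Some hosts were nearly filled by a single nested unit. CG3790 on 2R took up 95.5% of the non-coding CR43469 unit, CG17343 on 2L 94.5% of CG10702, and CG5112 on 3R 91.2% of CR44179. In the other direction, the antisense RNA CR43463 filled 93.5% of Pgant35A and CR46034 89.9% of CG33333.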
